A study of Mus musculus with 22 samples.

Results

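The mitochondrial respiratory chain genes described here are 50 mouse genes: 49 subunits encoded in the nucleus (complex I to complex IV and cytochrome c) and Mgarp, a mitochondrial outer membrane protein. They were chosen by gene symbol, and each gene stands for a single probe set, the brightest one averaged across all 22 arrays, and sets whose names mark cross-hybridization (_x_at) were passed over where another existed. A probe set annotated to a single gene symbol was found for 48 of the 50, out of 18193 genes on the array. Expression was not analysed here for Ndufs6, which is carried only by a set shared with other genes, or for Cox7b.

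The study measured messenger RNA on Affymetrix arrays in sorted cells of A2C12, a line grown from a lung tumour of a mouse that carried c-myc and c-raf transgenes on a C57BL/6 background, and in lung. The sorted fraction was the side population, which keeps out the DNA dye Hoechst. Antibody-treated cells (3 arrays) had received a monoclonal antibody against mouse EpCAM at 100 µg/ml for 48 h before the sort, and untreated cells (3 arrays) had not. The lungs came from C57BL/6 mice without the transgenes, 8 labelled female and 8 labelled male, whose ages are not given in the sources used here. All 6 cell arrays come from a single line that was sorted before extraction, and no unsorted cells of the line and no other tumour line were measured here, so line, transgenes, culture and sort cannot be told apart in any difference between cells and lung. The labels name the arrays of a group biological replicates.

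Complex I and complex II pass electrons from NADH and succinate to ubiquinone, complex III passes them to cytochrome c, and complex IV, cytochrome c oxidase, hands them to oxygen. Several complex IV subunits exist as isoforms from separate genes: Cox4i1 and Cox7a2 are the broadly expressed forms, Cox4i2 is known from lung and from vascular mural cells, and Cox7a1 is the heart and skeletal muscle form. Mgarp, also named Hummr, is known as a hypoxia-inducible protein that binds the mitochondrial transport machinery in neurons and as a gene of steroid-producing tissues.

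Both cell groups differed from lung above all in Mgarp, which was far higher in the cells, and in the tissue-restricted isoforms Cox7a1 and Cox4i2, which were near background in the cells. Nearly all other subunits were abundant on all arrays. After quantile normalization they differed from lung by 2-fold or less, Cox7c excepted in untreated cells. Centring each array on its median instead put Cyc1, Ndufa9, Ndufs4, Sdhd, Uqcrq and Ndufb9 past 2-fold in untreated cells as well. None of the tested members passed the test between antibody-treated and untreated cells.

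Log2 differences refer to log2(intensity + 16) after quantile normalization of the 22 arrays, which understates the change of dim genes. They come from limma fits across all tested genes, with Benjamini-Hochberg adjusted p-values at 0.05, and a gene is called between cells and lung if it also differs by at least 2-fold. Arrays of a group correlated across genes at 0.974 to 0.985 in antibody-treated cells, 0.984 to 0.989 in untreated cells, 0.984 to 0.995 in lungs labelled female and 0.966 to 0.993 in lungs labelled male. On 2 lung arrays, labelled male 3 and male 4, the X-linked RNA Xist measured 1512 and 1583, against 1225 to 1951 on the 8 arrays labelled female and 12.7 to 24.0 on the other 6 labelled male. Markers of lung cell types summed lower in the cells than in lung, but not all lists were near background there. The club cell markers Scgb1a1, Scgb3a2 and Cyp2f2 were, at 11.1 to 38.3 in antibody-treated and 2.03 to 18.1 in untreated cells. In lung they summed to 25839 to 33264. Alveolar type 1 markers summed to 1598 to 2071 in untreated cells and 20537 to 27755 in lung. Smooth muscle and pericyte markers summed to 5546 to 7401 in untreated cells and 8719 to 17844 in lung. In bulk samples such as these, fewer cells of a type and less RNA per cell cannot be told apart.

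Promoter windows of RefSeq (build GRCm38.p6, from 250 bases before to 50 bases after the start of the gene, on the gene's strand) were found for 39 of the 50 members. Mgarp and Cox7a1 are shown because they are the members with the highest and the lowest change against lung. In both, the capitals mark the letters ACGTG, the core that hypoxia-inducible factors are known to bind, here on the opposite strand. The Mgarp window lies at chr3:51396498-51396797 on the minus strand and the Cox7a1 window at chr7:30183921-30184220 on the plus strand.
Mgarp: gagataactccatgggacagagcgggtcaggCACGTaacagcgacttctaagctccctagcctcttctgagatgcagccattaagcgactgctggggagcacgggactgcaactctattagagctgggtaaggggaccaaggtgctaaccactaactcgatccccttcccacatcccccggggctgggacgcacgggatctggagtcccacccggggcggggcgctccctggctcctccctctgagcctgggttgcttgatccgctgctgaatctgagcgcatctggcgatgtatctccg
Cox7a1: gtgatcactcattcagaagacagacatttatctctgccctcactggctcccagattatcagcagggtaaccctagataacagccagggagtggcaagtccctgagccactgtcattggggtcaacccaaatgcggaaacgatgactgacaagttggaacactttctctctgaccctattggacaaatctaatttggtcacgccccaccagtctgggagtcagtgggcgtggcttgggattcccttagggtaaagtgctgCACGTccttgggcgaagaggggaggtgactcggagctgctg

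The second pair of windows belongs to Ndufa9 and Ndufs4, the accessory subunits of complex I with the highest change against lung. The capitals mark AAGATGGCG, a form of the motif of the transcription factor YY1, which starts 29 bases after the annotated start in Ndufa9 and 35 bases after it in Ndufs4. The Ndufa9 window lies at chr6:126849095-126849394 and the Ndufs4 window at chr13:114388045-114388344, both on the minus strand.
Ndufa9: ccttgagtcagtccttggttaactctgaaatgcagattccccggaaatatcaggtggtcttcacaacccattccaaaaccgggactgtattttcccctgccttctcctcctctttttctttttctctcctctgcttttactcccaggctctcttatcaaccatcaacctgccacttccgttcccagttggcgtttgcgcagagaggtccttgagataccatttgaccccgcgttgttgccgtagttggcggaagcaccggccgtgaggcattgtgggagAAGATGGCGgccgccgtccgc
Ndufs4: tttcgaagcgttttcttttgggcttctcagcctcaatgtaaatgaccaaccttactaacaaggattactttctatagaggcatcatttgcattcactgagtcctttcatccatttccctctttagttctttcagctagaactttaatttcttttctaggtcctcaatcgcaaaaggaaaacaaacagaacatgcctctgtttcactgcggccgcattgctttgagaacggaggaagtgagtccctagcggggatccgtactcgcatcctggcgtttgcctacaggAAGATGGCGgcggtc

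Letter matches were counted on both strands over 27025 genes with a window. AAGATGGCG was found in 4 of 39 members (10.3%), namely Ndufa9, Ndufs4, Ndufs6 and Ndufs7, and in 1.64% of all genes. CCGGAAG, a form of the motif of the ETS family that includes GABP, was found in 8 of 39 members (20.5%) and in 9.93% of all genes. GCATGCGC, a short form of the palindrome that NRF1 binds, was found in 6 of 39 members (15.4%), Cycs and Sdhb among them, and in 3.05% of all genes. The full NRF1 palindrome, which contains it, was found in Cox6a1 and Uqcrc1 (5.13% of members) and in 1.07% of all genes. ACGTG was found in 10 of 39 members (25.6%) and in 21.8% of all genes, and the E-box CACGTG, which contains it, in 2 of 39 members (5.13%) and in 8.09% of all genes. A match describes the letters in this window only.

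Against lung, 4 of 47 tested members were called in untreated cells (8.51%), where 41.6% of all 15197 tested genes were called. Mgarp and Cox7c were called higher, and Cox7a1 and Cox4i2 were called lower. On the adjusted p alone, 25 members were higher in untreated cells, 8 were lower and 14 did not pass, so 70.2% passed, against 81.8% of all tested genes (41.0% higher and 40.8% lower). The members' median log2 difference was 0.26, against 0.01 for all tested genes and -0.15 for the 1906 genes that averaged above 1000, a level that 40 of the 48 measured members also passed. The untreated and lung arrays did not overlap for 17 members that were higher and 6 that were lower, together 48.9% of the tested members, against 65.9% of all tested genes. With each array centred on its median in place of quantile normalization, which put the median of all tested genes at 0.12, 10 members were called in untreated cells, and on the adjusted p 37 were higher and 3 were lower. Overlaps were read from the quantile-normalized values. Leaving out the 2 lung arrays with the female pattern of Xist gave the same 4, 25 and 8.

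In antibody-treated cells, 3 of 47 members were called against the same lung arrays (6.38%, against 41.1% of 15138 tested genes): Mgarp higher, and Cox7a1 and Cox4i2 lower. On the adjusted p alone, 24 were higher and 10 were lower (72.3%, against 81.0% of all tested genes, 39.7% higher and 41.3% lower). The members' median log2 difference was 0.20, against -0.01 for all tested genes. Under median centring 9 were called, 34 were higher and 4 were lower. The antibody-treated and lung arrays did not overlap for 20 members, 15 higher and 5 lower (42.6%, against 63.2% of all tested genes). The 2 comparisons share the 16 lung arrays, so their values are given side by side and not counted as separate evidence.

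**Figure D1:**
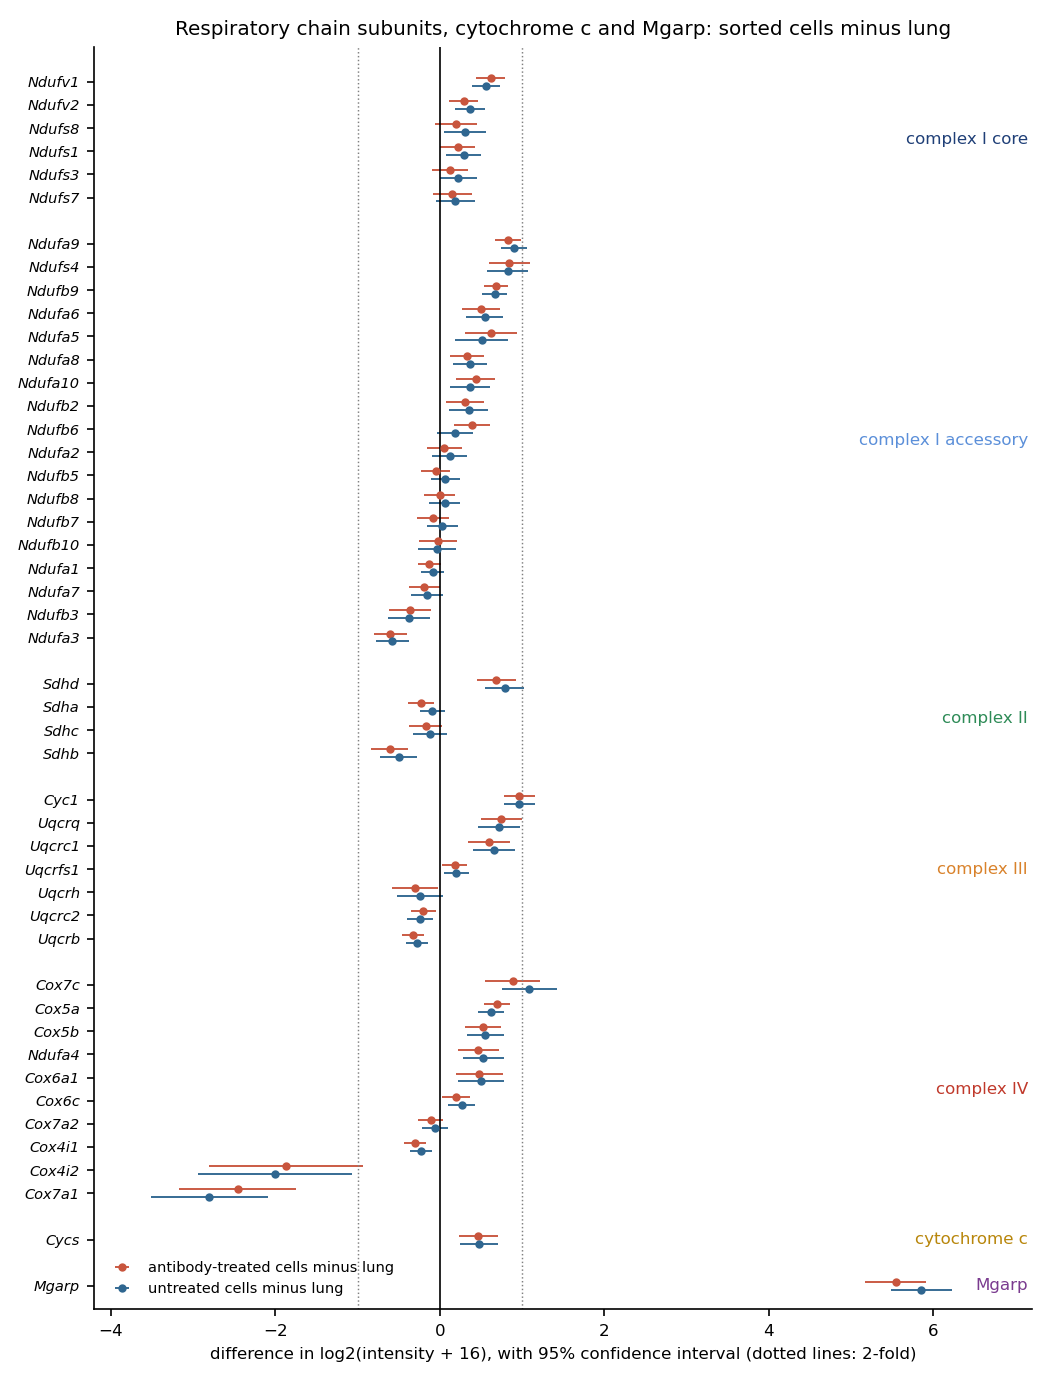
Difference in log2(intensity + 16) between sorted cells and lung for the 47 tested members, by complex, with 95% confidence intervals of the model; red points are antibody-treated cells minus lung, blue points untreated cells minus lung (n = 3 cell arrays each, 16 lung arrays). Mgarp lies at 5.54 in antibody-treated and 5.85 in untreated cells, Cox7a1 and Cox4i2 lie lowest, and the other members lie between -0.61 and 1.09.

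Mgarp measured 6369, 6127 and 9172 intensity units in the 3 antibody-treated samples, 6904, 12483 and 7811 in the 3 untreated samples, and 80.4 through a median of 130 to 219 on the 16 lung arrays. No cell array came within the range of lung. The log2 difference was 5.54 ± 0.18 in antibody-treated cells (model SE, adjusted p = 9.02e-19, limma) and 5.85 ± 0.18 in untreated cells (adjusted p = 2.97e-19, limma), which is 46.6-fold and 57.7-fold on that scale. Mgarp has 1 probe set on the array, so no second set was there to compare.

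Genes linked to Mgarp by hypoxia or by mitochondrial transport were called about as often as other genes. Of 14 tested genes of that list, 4 were called higher and 2 lower in untreated cells (42.9%), a share near the 41.6% of all tested genes. Egln3, a prolyl hydroxylase of hypoxia-inducible factors, averaged 317 in untreated cells and 24.5 in lung (log2 difference 3.21). Pdk1, a kinase that inhibits pyruvate dehydrogenase, averaged 1142 in untreated cells and 174 in lung (2.66), and Hif1a averaged 3376 in untreated cells and 886 in lung (1.87). Epas1, the HIF-2 alpha gene that is abundant in lung endothelium, averaged 57.7 in untreated cells and 8143 in lung (-6.63). The endothelial markers fell with it: all 5 were called lower, with a median log2 difference of -6.11, and their part in the Epas1 value was not tested. The other gene of the list called lower was Ndufa4l2, a hypoxia-induced relative of Ndufa4 whose values are given below. The list's median was -0.04, against 0.01 for all tested genes.

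Cox7a1 and its broadly expressed partner Cox7a2 differed from lung unequally. Cox7a1 measured 25.3, 20.4 and 27.5 in antibody-treated cells, 7.88, 25.4 and 18.6 in untreated cells, and 79.5 through a median of 246 to 530 in lung. Cells and lung did not overlap, and all 6 cell values lay below the 40th percentile of the arrays, 29.9, so that the gene passed the filter through lung alone. The log2 difference was -2.46 ± 0.35 in antibody-treated cells (adjusted p = 6.45e-07, limma) and -2.80 ± 0.35 in untreated cells (adjusted p = 8.13e-08, limma), and with offsets of 1 and 64 in place of 16 it was -3.56 and -1.84 in untreated cells. Cox7a2 measured 5605, 5476 and 5460 in untreated cells and 4754 through a median of 5391 to 5728 in lung. Its groups overlapped, and the log2 difference of -0.06 (95% interval -0.22 to 0.09) did not pass the test (adjusted p = 0.451, limma), but it was 0.33 under median centring (adjusted p = 6.02e-05, limma).

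Cox4i2, the oxygen-sensitive isoform of the subunit that Cox4i1 also encodes, measured 16.5, 13.2 and 31.6 in antibody-treated cells, 21.2, 28.8 and 5.23 in untreated cells, and 69.6 through a median of 94.0 to 450 in lung. No cell array reached the lung range, and 5 of the 6 cell values lay below the 40th percentile, so that this gene too passed the filter through lung. The lung values fell into separate clusters: the arrays labelled female 1 to female 4 measured 367 to 450, and the other 12 lung arrays, female 5 to female 8 included, measured 69.6 to 141. The log2 difference was -1.87 ± 0.45 in antibody-treated cells (adjusted p = 0.000606, limma) and -2.01 ± 0.45 in untreated cells (adjusted p = 0.000296, limma). Without the 4 high lung arrays it was -1.32 in antibody-treated cells (adjusted p = 1.69e-05, limma) and -1.45 in untreated cells (adjusted p = 5.1e-06, limma). Cox4i1 measured 4827, 4692 and 4568 in untreated cells and 4717 through 5223 to 5712 in lung, overlapping in these deposited units. Its log2 difference of -0.23 (adjusted p = 0.00316, limma) turned to 0.12 under median centring (adjusted p = 0.102, limma), so its direction depends on the scaling.

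**Figure D2:**
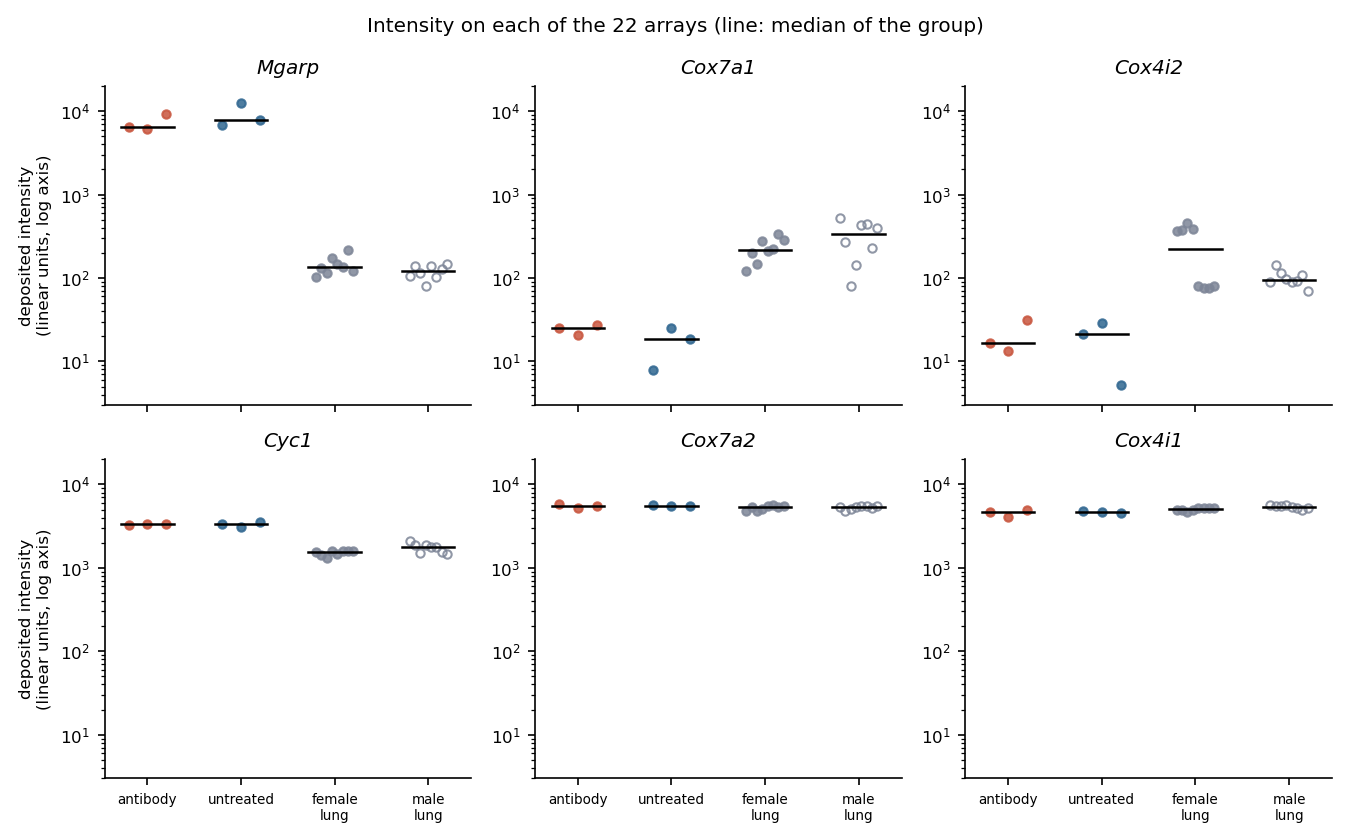
Deposited intensity on each of the 22 arrays, on a log axis, for Mgarp, the isoform pairs Cox7a1 with Cox7a2 and Cox4i2 with Cox4i1, and Cyc1; red points are antibody-treated cells, blue points untreated cells, filled grey points lungs labelled female and open points lungs labelled male, with a line at each group's median. Mgarp lies at 6127 or more in all cell arrays and at 219 or less in lung, Cox7a1 and Cox4i2 lie below 32 in the cells, and 4 of the 8 lungs labelled female stand above 360 for Cox4i2.

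Markers of heart muscle moved with Cox7a1 across the lung arrays. Their summed intensity over 10 genes was 383 to 473 in antibody-treated cells, 363 to 569 in untreated cells and 3796 (male 3) to 30526 (male 1) in lung, and the lowest and the highest Cox7a1 value came from the same 2 lung arrays. The cardiac myosin Myh6 averaged under 0.1 in both cell groups and 1446 in lung. Over the 16 lung arrays, the log2 sums and the log2 Cox7a1 intensity had a Pearson r of 0.957 and a Spearman rho of 0.976 (permutation p = 1e-05 for each, two-sided, the smallest that 100000 permutations can give; 2e-05 adjusted over the 2 relations computed). Without the arrays farthest from the median, male 1 and male 3, r was 0.951, and it was 0.911 within the 8 arrays labelled female and 0.98 within the 8 labelled male. The second relation, with 10 smooth muscle and pericyte markers, gave r = 0.522 (permutation p = 0.0387, adjusted 0.0387) and rho = 0.435 (permutation p = 0.0929, adjusted 0.0929). Its r was 0.112 without male 3 and male 4, 0.121 within the arrays labelled female and 0.821 within those labelled male, and 0.491 within lungs numbered 1 to 4 and 0.604 within lungs numbered 5 to 8. The relation over the 16 arrays thus does not hold without male 3 and male 4. The part of heart tissue in the difference between cells and lung was not tested.

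**Figure D3:**
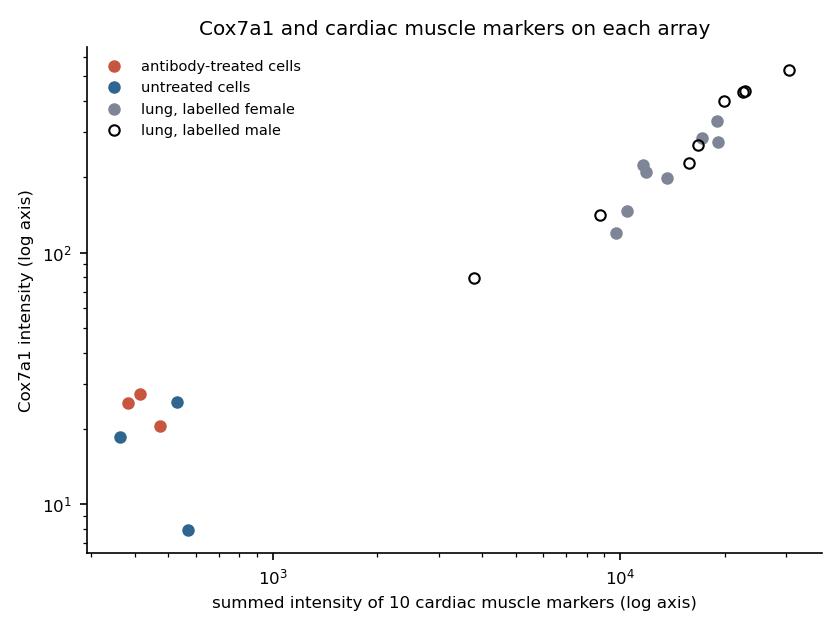
Cox7a1 intensity against the summed intensity of 10 heart muscle markers on each array, both on log axes; red points are antibody-treated cells, blue points untreated cells, filled grey points lungs labelled female and open points lungs labelled male. The 16 lung arrays run from 79.5 to 530 for Cox7a1 as the markers run from 3796 to 30526, and the 6 cell arrays stand below 28 for Cox7a1 and below 570 for the markers.

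Other tissue-restricted forms of complex IV subunits and a relative of Ndufa4 were low in the cells as well. They were taken from a list of chain subunits outside the members. Cox6a2, the heart and muscle form of subunit 6a, averaged 60.6 in untreated cells and 916 in lung (log2 difference -3.33). Cox8b, the heart and muscle form of subunit 8, averaged 14.2 in untreated cells and 335 in lung (-3.21). Cox6b2, known as the testis form of subunit 6b, averaged 15.9 in untreated cells and 451 in lung (-3.71). Ndufa4l2, a hypoxia-induced relative of Ndufa4, averaged 14.8 in untreated cells and 278 in lung (-3.19). Cox8b, Cox6b2 and Ndufa4l2 averaged below the 40th percentile, 29.9, in untreated cells and passed the filter through lung, so their log2 differences depend on the offset of 16. These were the 4 of 18 tested genes of the list called lower, a share near the 23.8% of all tested genes, Ndufa12 was the 1 called higher (1.16), and the list's median was -0.01.

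Within complex IV, 6 of the 10 tested members were higher in untreated cells on the adjusted p, 3 were lower and Cox7a2 did not pass. By that rule 41.0% of all tested genes were higher and 40.8% were lower. Cox7c, a small structural subunit, is the member called higher, at 58.9, 57.4 and 78.2 in untreated cells and 18.6 through 28.9 to 45.0 in lung. The groups did not overlap, but its set lies near the median of an array (39.3 to 54.6), and the log2 difference of 1.09 ± 0.16 (adjusted p = 1.36e-06, limma) was 0.62 with an offset of 64. In antibody-treated cells it was 0.89 ± 0.16 (adjusted p = 2.42e-05, limma). Cox5a, a matrix-side subunit, measured 5878, 5439 and 6425 in untreated cells and 3015 through 3577 to 4208 in lung, without overlap (0.62 ± 0.07, adjusted p = 5.43e-08, limma). Cox5b (0.55), Ndufa4 (0.52), Cox6a1 (0.50) and Cox6c (0.26) were higher by smaller log2 differences. A second bright set of Cox6a1, with means of 3760 in untreated cells and 3547 in lung, gave -0.006 and did not pass (adjusted p = 0.944, limma). Cox5b was measured by several sets, and 2 dim sets ran the other way, 1 with means of 15.0 in untreated cells and 187 in lung and 1 with means of 1.72 in untreated cells and 10.6 in lung, while the 4 bright sets gave 0.35 to 0.55.

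Cytochrome c, which carries electrons to complex IV and starts apoptosis when it leaves the mitochondrion, is encoded by Cycs. It measured 4353, 4695 and 3782 in antibody-treated cells, 4829, 3326 and 4492 in untreated cells and 1975 through 2818 to 3652 in lung. The untreated array at 3326 lay within the range of lung, and the antibody-treated arrays all lay above it. The log2 difference was 0.47 ± 0.11 in antibody-treated cells (adjusted p = 0.000606, limma) and 0.47 ± 0.11 in untreated cells (adjusted p = 0.000529, limma). Its 3 abundant sets gave 0.36 to 0.68 in untreated cells.

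In complex III, 4 of 7 subunits were higher in untreated cells and 2 were lower on the adjusted p. The shares over all tested genes were 41.0% and 40.8%. Cyc1, the cytochrome that hands electrons to cytochrome c, measured 3256, 3365 and 3358 in antibody-treated cells, 3323, 3104 and 3560 in untreated cells and 1323 through 1578 to 2078 in lung. No cell array overlapped lung, and the log2 difference was 0.97 ± 0.09 in antibody-treated cells (adjusted p = 7.3e-10, limma) and 0.96 ± 0.09 in untreated cells (adjusted p = 7.39e-10, limma), just inside 2-fold. Uqcrq (0.72), Uqcrc1 (0.66) and Uqcrfs1 (0.20), the Rieske iron-sulphur protein, were also higher. Uqcrb (-0.28) and the core protein Uqcrc2 (-0.24) were lower, and both turned positive under median centring. Without normalization Uqcrb stood at -0.06 and did not pass (adjusted p = 0.528, limma).

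Complex II, which is also an enzyme of the tricarboxylic acid cycle, split by subunit. Sdhd, a membrane anchor, measured 1833, 1650 and 1436 in untreated cells and 744 through 899 to 1115 in lung, without overlap (0.79 ± 0.12, adjusted p = 1.09e-06, limma). Sdhb, the iron-sulphur subunit, measured 1559, 1725 and 1710 in untreated cells and 1964 through 2270 to 2814 in lung, without overlap the other way (-0.50 ± 0.11, adjusted p = 0.000202, limma). In antibody-treated cells the log2 differences were 0.69 for Sdhd and -0.61 for Sdhb. Under median centring Sdhb stood at -0.17 in untreated cells and did not pass (adjusted p = 0.177, limma). The flavoprotein Sdha (-0.09) and the second anchor Sdhc (-0.12) did not pass in untreated cells.

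In complex I, 4 of the 6 tested core subunits were higher in untreated cells on the adjusted p and none was lower, the largest difference being that of Ndufv1, the NADH-binding flavoprotein (0.56). Of the 18 tested accessory subunits, 8 were higher and 2 were lower. With 41.0% of all tested genes higher and 40.8% lower, accessory subunits were higher about as often as other genes. Ndufa9, at the junction of the membrane arm and the matrix arm, measured 2124, 1926 and 2212 in untreated cells and 916 through 1080 to 1197 in lung, without overlap (0.90 ± 0.08, adjusted p = 8.81e-11, limma). Ndufs4, an accessory subunit lost in a mouse model of Leigh syndrome, measured 1715, 1382 and 1300 in untreated cells and 566 through 781 to 1020 in lung, without overlap (0.83 ± 0.12, adjusted p = 1.03e-06, limma). Ndufb9 (0.67) and Ndufa6 (0.55), which belong to the LYR protein family, were also higher. Ndufa3 measured 2430, 2197 and 2091 in untreated cells and 2719 through 3196 to 3386 in lung, without overlap (-0.58 ± 0.10, adjusted p = 6.72e-06, limma), and Ndufb3 was lower by a smaller log2 difference (-0.38). Under median centring Ndufb3 stood at -0.05 and did not pass (adjusted p = 0.767, limma), and Ndufa3 stood at -0.23 (adjusted p = 0.045, limma). The mean over its probe sets put Ndufa3 at -0.15 (adjusted p = 0.0797, limma). That mean includes a dim set of Ndufa3, with means of 93.8 in untreated cells and 71.2 in lung, which gave 0.65. The 2 bright sets gave -0.58 and -0.51.

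Lung arrays split by their number for some members. In the normalized values, all 8 lung arrays numbered 1 to 4 lay below all 8 numbered 5 to 8 for 4 members, Ndufa5, Ndufs7, Uqcrh and Cox7a2, and for none the other way. In the deposited units Uqcrb was apart the other way, at 9236 to 11128 on arrays 1 to 4 and 8107 to 8608 on arrays 5 to 8. The share of all genes that split in this way was not computed, so the count is not a result about the members. Ndufa5, an accessory subunit of complex I, measured 1150 to 1465 on the lung arrays numbered 5 to 8 and 707 to 1087 on those numbered 1 to 4, in both sexes as labelled, and 1564, 1605 and 1826 in untreated cells. Its log2 difference between untreated cells and lung was 0.51 ± 0.15 over all lung arrays (adjusted p = 0.0044, limma), 0.26 against lungs 5 to 8 (adjusted p = 0.0109, limma) and 0.76 against lungs 1 to 4 (adjusted p = 4.54e-06, limma). Over all genes, the deviations of female and male arrays from their group means correlated at 0.18 on average among those numbered 5 to 8 and 0.0963 among those numbered 1 to 4, and at -0.144 and -0.117 across the sets. The labels give no batch, and what the numbers stand for was not tested.

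The antibody comparison asked whether treatment against EpCAM changed the sorted cells. None of 45 tested members passed the test between antibody-treated and untreated cells, and none had an unadjusted p under 0.05, where 0.0236% of 12711 tested genes were called and 0.740% had such a p (limma). No member's groups were apart, against 2.92% of all tested genes. The members' log2 differences ran from -0.31 to 0.21 with a median of -0.05, against -0.02 for all tested genes, and 12 of 45 were positive. All 45 intervals at 95% lay within 2-fold in either direction, which 12364 of the 12711 genes shared, so they leave room for changes under 2-fold. Mgarp, with the smallest p of the members, measured 6369, 6127 and 9172 in antibody-treated cells and 6904, 12483 and 7811 in untreated cells, overlapping (-0.31, interval -0.82 to 0.20, unadjusted p = 0.199, limma). Ndufb6 followed at 2117, 1966 and 1571 in antibody-treated cells and 1593, 1535 and 1852 in untreated cells (0.21, interval -0.15 to 0.56), and then Cox7c (-0.20, interval -0.68 to 0.28). Cox4i2, Cox7a1 and Ndufb4 lay below the filter in the cells and were not tested, and Ndufb4 lay there in lung too.

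The array of antibody replicate 2 gave the lowest of the 6 cell values for 26 of the 45 members, and that of antibody replicate 3 gave the highest for 20. These counts were not made over all tested genes, so they may not be particular to the members. Replicate 2 also had the highest log2 ratio of the 3' to the 5' control sets among the cell arrays, 0.403 for Gapdh and 1.21 for Actb, where the others lay between -0.130 and 0.0653 and between 0.225 and 0.862. On the 16 lung arrays these ratios lay between 0.220 and 1.02 for Gapdh and between 0.279 and 0.903 for Actb. The part of RNA integrity in the members' values, among the cells or against lung, was not tested. Without replicate 2, none of the tested members passed either.

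**Figure D4:**
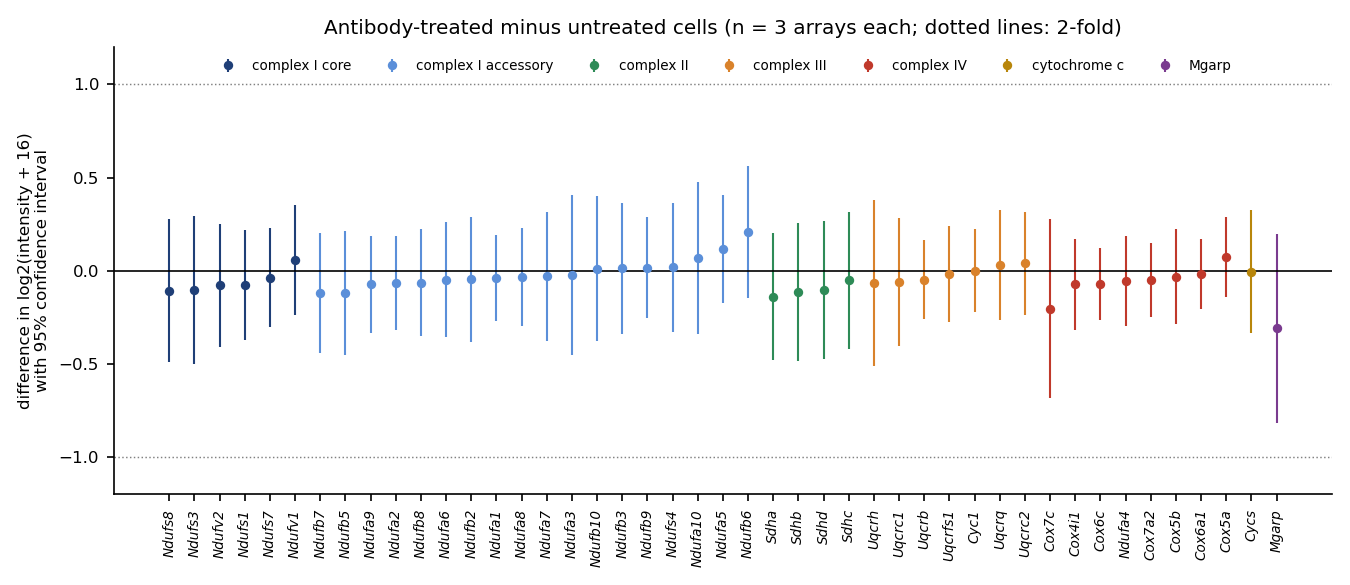
Difference in log2(intensity + 16) between antibody-treated and untreated cells for the 45 tested members, coloured by complex, with 95% confidence intervals of the model (n = 3 arrays each). All intervals cross 0 and stay within 2-fold, and Mgarp at the right has the lowest estimate, -0.31.

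Between lungs labelled female and lungs labelled male, none of 47 tested members passed the test, where 0.0486% of 14392 tested genes did, and 5 had an unadjusted p under 0.05, against 10.6% of all tested genes (limma). The smallest p of the members belonged to Ndufa10, an accessory subunit of complex I, at 683 through 778 to 824 in lungs labelled female and 742 through 895 to 1167 in lungs labelled male (-0.24, adjusted p = 0.291, limma). Uqcrfs1 (-0.14) and Ndufs8 (-0.21) followed. Cox4i2 had the largest difference, 0.78 (interval -0.03 to 1.58, adjusted p = 0.49, limma), which holds the 4 high female arrays described above.

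Several neighbouring mitochondrial gene lists had higher medians between untreated cells and lung than the 0.26 of the members, a difference that was not tested. Of 31 mitochondrial ribosome proteins, 19 were called higher and none lower, with a median log2 difference of 1.15: Mrpl13 averaged 3047 in untreated cells and 720 in lung (2.01), and Mrps7 averaged 1071 in untreated cells and 274 in lung (1.95). Of 36 factors that assemble the chain, 10 were called higher and none lower, with a median of 0.68, led by Ttc19, a complex III factor (333 in untreated cells and 72.7 in lung, 2.18), and Ndufaf6 (1.45). Of 18 regulators, 5 were called higher and 2 lower (median 0.65): Myc, the gene of 1 of the transgenes of the tumour of origin, averaged 844 in untreated cells and 70.0 in lung (3.46). The mitochondrial DNA helicase Twnk averaged 323 in untreated cells and 82.9 in lung (1.99), Tfam, which packs mitochondrial DNA, averaged 1152 in untreated cells and 300.4 in lung (1.93), and the coactivator Ppargc1b was lower (-1.73). Whether the Myc set measures the transgene was not tested.

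ATP synthase, the fifth complex, had few called genes, like the members: 1 of 16 listed genes was called higher, Atp5g1 (1.16), none lower, and the median was 0.13. On the adjusted p 43.8% of them passed, against 70.2% of the members and 81.8% of all tested genes. In the tricarboxylic acid cycle 1 of 13 enzymes was called higher, Sucla2 (1.04), and 1 lower, Ogdh (-1.63), with a median of 0.41. Of 14 glycolysis genes, 8 were called higher and 1 lower (median 1.13), among them Pgam1, at 5637 in untreated cells and 1108 in lung (2.25), and Ldhb, at 185 in untreated cells and 1902 in lung (-3.10). All these lists stand beside 17.8% of tested genes called higher and 23.8% called lower and a median of 0.01. In antibody-treated cells the list medians were 1.23 for the mitochondrial ribosome, 0.63 for assembly factors, 0.13 for ATP synthase, 0.37 for the cycle and 0.99 for glycolysis. Proliferation markers moved with these lists: 5 genes summed to 5987 to 13142 in antibody-treated cells, 9149 to 12474 in untreated cells and 238 to 1090 in lung, and their part in these values was not tested.

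**Figure D5:**
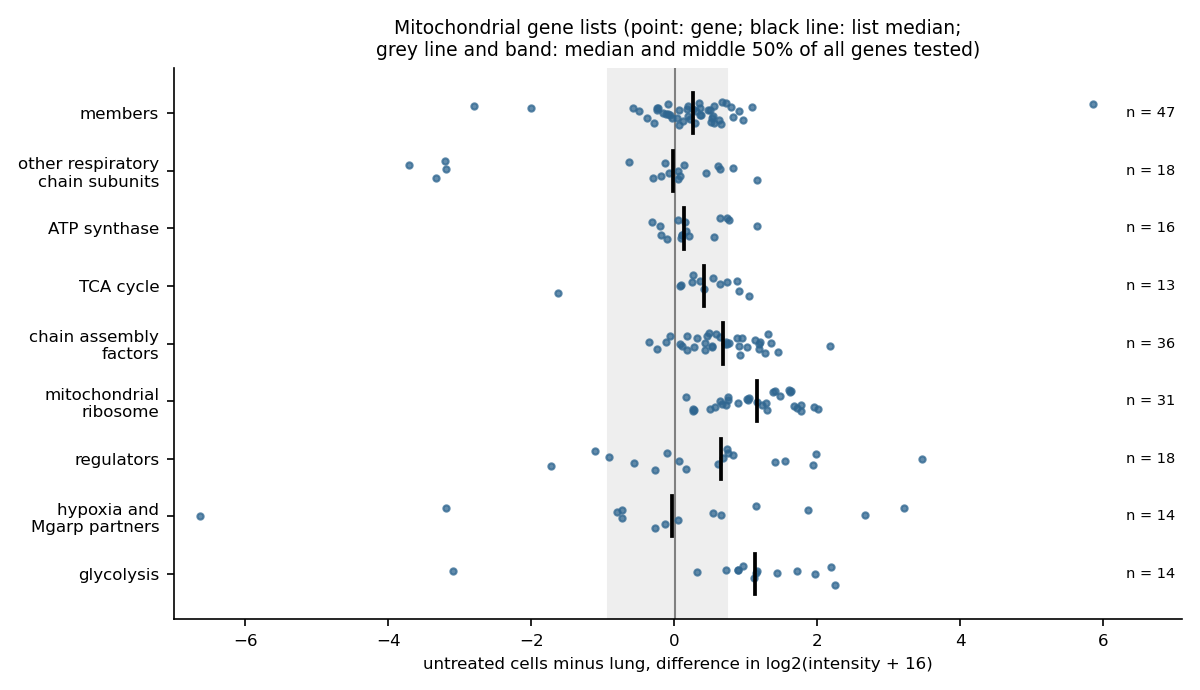
Difference in log2(intensity + 16) between untreated cells and lung for each tested gene of the members and of 8 neighbouring lists; a black line marks each list's median, and the grey line and band mark the median and the middle 50% of all tested genes. The mitochondrial ribosome (median 1.15) and glycolysis (1.13) lie farthest to the right, and the members' median is 0.26.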

How the data were processed

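The deposited table holds 1 linear intensity per probe set and array for 45101 probe sets, which the authors summarized with PLIER, per the submitters' processing notes; its version and any scaling between arrays are not given in the sources used here. Symbols came from the platform annotation: 34945 probe sets carry 1 symbol and 932 several. Among single-symbol sets, the brightest per gene was used (18193 genes). From the deposited intensity, log2(intensity + 16) was taken after quantile normalization of the 22 arrays. Genes brighter than the 40th percentile on 3 or more of the compared arrays were tested. Linear models with a variance trend were fitted in limma 3.58.1 (R 4.3.3). Both cell groups against lung used all 22 arrays; the antibody and sex comparisons used their own arrays. The test was checked on simulated data with independent noise for each gene and array. Such data cannot show what shared array effects or a shared culture do to the test.

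The members and lists were chosen with earlier results of these data known. Named by rule were Mgarp, Cycs, the isoform pairs, the called members, the 3 smallest p-values of the antibody and sex comparisons, and up to 4 called genes per other list; other genes were named after their values were seen. Where replicates share a culture, p-values measure only the spread between these arrays. The number of arrays limits the precision. Alternatives were other normalizations, offsets, filters, probe set rules, variance models and arrays. Lung splits by array number, and leaving out female 1 to female 4, were added after seeing the data. Sequences are RefSeq's (GRCm38.p6). Ndufs6 and Cox7b were left out of the expression results.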

Additional observations from a re-analysis of the deposited data

Results flagged for a closer look

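Among 96 groups of 8 lung arrays (48 members in each labelled sex), 1 array stood far from the others by Dixon's test. Ndufv2, an iron-sulphur subunit of the core of complex I, measured 1338.89 on the array labelled male 2, where the other 7 arrays labelled male ran from 1744 to 2037. Chance gives about 1 such group in 20.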

How the results depend on the processing

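Centring each array on its median changed the most. It called 9 members in antibody-treated cells and 10 in untreated cells (adding Ndufa9, Ndufb9, Ndufs4, Sdhd, Uqcrq and Cyc1), and on the adjusted p 34 members were higher and 4 lower in antibody-treated cells, and 37 higher and 3 lower in untreated cells. Under it, Cox4i1 turned to 0.08267 in antibody-treated and 0.11865 in untreated cells, and Cox7a2 to 0.33292 in antibody-treated and 0.33174 in untreated cells. The cause was not tested. It put the median of all genes at 0.09 in antibody-treated and 0.12 in untreated cells, where no normalization put it at -0.18 and -0.15. Without normalization no member that had passed changed sign. Leaving out each cell array in turn gave 3 to 4 called members in both comparisons with lung, and 5.35 to 5.65 for Mgarp in antibody-treated and 5.61 to 6.00 in untreated cells. Passing members without each array numbered 20 to 25 higher and 7 to 12 lower in antibody-treated cells, and 21 to 24 higher and 7 to 8 lower in untreated cells. The mean over a gene's probe sets, which for Ndufa3 includes the dim set described above, left Ndufa3 at -0.15 in untreated cells (adjusted p = 0.0797, limma). The deviations of same-numbered cell arrays from their group means correlated at 0.0662, -0.26 and 0.0677, and those of differently numbered arrays at -0.264 to 0.26. With 3 arrays in a group, each centred on the group mean, these values cannot decide whether the numbers pair the arrays. The replicate block gave 5 called members in each comparison with lung, and 0 in the antibody and sex comparisons. In the antibody and sex comparisons, no member passed under any alternative run. The small groups of 3 cell arrays and the dim signals of Cox7a1 and Cox4i2 in the cells, Cox7c in lung and Ndufb4 in both limit these results.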

Other observations

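Probe sets of a member did not always give the same sign against lung. Of 25 members with more than 1 set averaging above 100, 19 had sets of one sign and 6 had sets of both signs in untreated cells: Cox5b, Cox6a1, Ndufa7, Ndufs8, Uqcrb and Uqcrc2. The median spread between a member's sets was 0.24 on the log2 scale. The second set of Sdhd gave 1.30, against 0.79 for the chosen set. The second set of Ndufb5, an accessory subunit of complex I, gave 0.65, against 0.07 for the chosen set. No member had sets past 2-fold in both directions, but the brighter of the dim Cox5b sets described above lay at -2.45.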
